A study of Mus musculus and Macaca mulatta with 39 samples.

Results

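Celf2 and Cadm1 are long mouse genes. In windows around them, called regions of histone H3 lysine 27 acetylation (H3K27ac) accumulated over many neighbouring sites late in cortical development. They were followed here through a window of 1.6 Mb around Celf2 (mm9 chr2:6400001-8000000) and a window of 1 Mb around Cadm1 (mm9 chr9:47000001-48000000), both with flanks. The members are the regions in these windows, 1990 of the 921935 regions in the 16 mouse lists. The Celf2 window held 1023 of them (755 of H3K27ac and 268 of H3K4me2) and the Cadm1 window 967 (629 and 338). The windows were chosen by the late gain of covered length in these same lists, from E11.5 to E17.5, so that everything said of E17.5 against E11.5 describes the choice and supports nothing.

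The lists come from ChIP-seq on embryonic cortex of C57BL6J mice, dissected as E17.5 frontal cortex, E17.5 occipital cortex, E14.5 cortex and E11.5 cortex, with no other treatment or allele named. Each tissue had 2 biological replicates, each precipitated for H3K27ac and for histone H3 lysine 4 dimethylation (H3K4me2), which gives 8 lists per mark. How many embryos went into a replicate is not stated in the labels. The lists hold positions only and no mm9 gene positions were used, so the labelled tissue could not be checked against marker genes.

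H3K27ac marks promoters and enhancers in use. H3K4me2 also sits on enhancers and promoters that are poised rather than in use. Celf2 encodes an RNA-binding protein of the CELF family that regulates alternative splicing and messenger RNA handling, and is abundant in neurons. Cadm1 encodes an immunoglobulin-superfamily adhesion molecule, also called SynCAM1, that joins neighbouring cells and the sides of a synapse. In the RefSeq gene table (GRCm38.p6) Celf2 spans 857 kb and lies between the protein-coding genes Usp6nl and Gata3, and Cadm1 spans 332 kb and lies between Gm4791 and Nxpe4. How far the flanks of the windows reach into these neighbours was not determined, because the gene table and the lists use different builds, and no region was assigned to a gene, exon or promoter.

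RefSeq lists 5 start sites for Celf2, spread over 675 kb on the minus strand of chromosome 2. For 1 of the 2 genes, Celf2, the RefSeq promoter table held entries. The start sites differ in their content of CG dinucleotides, a motif that reads the same on both strands and that is dense in the promoters of many broadly used genes. The densest and a sparse one follow, from 250 bases before to 50 bases after the start, with each CG in capitals.
Celf2 start 4, GRCm38.p6 chr2:6871986-6872285, minus strand: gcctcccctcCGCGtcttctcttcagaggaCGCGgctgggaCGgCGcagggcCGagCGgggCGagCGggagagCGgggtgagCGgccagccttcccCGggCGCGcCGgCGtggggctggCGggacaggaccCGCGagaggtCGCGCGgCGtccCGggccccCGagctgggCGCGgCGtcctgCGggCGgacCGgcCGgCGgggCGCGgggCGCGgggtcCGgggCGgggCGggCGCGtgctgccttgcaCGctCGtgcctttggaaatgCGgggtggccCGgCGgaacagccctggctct
Celf2 start 3, GRCm38.p6 chr2:7081253-7081552, minus strand: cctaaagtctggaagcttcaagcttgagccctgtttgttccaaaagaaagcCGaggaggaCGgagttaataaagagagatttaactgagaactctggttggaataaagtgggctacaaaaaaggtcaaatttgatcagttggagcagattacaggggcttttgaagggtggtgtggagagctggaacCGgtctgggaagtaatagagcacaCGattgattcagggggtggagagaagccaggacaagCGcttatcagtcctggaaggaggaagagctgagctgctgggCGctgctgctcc
Start 4 holds 48 CG dinucleotides in 300 bases and is 80.3% G or C, and 1.22% of the 32851 promoters in the table hold as many or more. Start 3 holds 6 and is 49.3% G or C, and the remaining starts hold 4, 6 and 8. These positions are GRCm38.p6 and cannot be set against the mm9 positions of the regions.

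Over the whole lists, 47631 to 87236 H3K27ac regions covered 63.1 to 169 Mb, and 32366 to 76833 H3K4me2 regions covered 65.3 to 162 Mb. The longest H3K4me2 list, that of E17.5 occipital replicate 2, covered 162 Mb, against 113 Mb in E17.5 occipital replicate 1. Replicates also differed earlier, with 144 and 107 Mb of H3K27ac in E14.5 replicates 1 and 2, 85.3 and 63.1 Mb in E11.5 replicates 1 and 2, and 69.3 and 111.7 Mb of H3K4me2 in E11.5 replicates 1 and 2. The measure used below is covered length, the number of bases of a bin or locus that lie in the regions of a list. The files carry no read numbers, so the depth behind a region is unknown, and in bulk tissue a change in the mix of cells and a change of the mark within cells cannot be told apart.

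At E17.5 the Celf2 window was covered by H3K27ac over 16.3% to 28.0% of its length, against 3.32% and 1.79% at E11.5. The covered length was 53.1 and 28.7 kb in the 2 E11.5 lists and 182.9 and 134 kb in the 2 E14.5 lists. It was 343 and 447 kb in the frontal lists and 409 and 261 kb in the occipital lists at E17.5. Every later stage lay above every list of the stage before it, with no overlap, and the number of regions followed, with 32 and 25 at E11.5, 81 and 87 at E14.5, 144 and 127 in frontal and 132 and 127 in occipital cortex. The mean was 365044 ± 81957 bp at E17.5 (SD, n = 4), against 40888 ± 17236 bp at E11.5 (SD, n = 2), a ratio of 8.93, while the ratio of the whole lists was 2.09. As a share of the list's own covered length the window took 0.202% to 0.279% at E17.5, against 0.0622% and 0.0455% at E11.5.

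The Cadm1 window followed the same order of stages. H3K27ac covered 50.2 and 27.9 kb of it at E11.5, 149 and 101 kb at E14.5, 290.0 and 249 kb in frontal cortex and 232 and 198 kb in occipital cortex at E17.5. Again no list of a stage overlapped with the stage before it. The mean was 242238 ± 38344 bp at E17.5 (SD, n = 4), against 39062 ± 15822 bp at E11.5 (SD, n = 2), a ratio of 6.20. The share of the list's covered length was 0.144% to 0.171% at E17.5, against 0.0589% and 0.0442% at E11.5.

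The added length came as more regions and, among the longest, as longer ones. In the Cadm1 window the median width was greater as well. The median width in the Celf2 window overlapped, with 1312.5 and 1000 bp at E11.5 and 1200, 1575, 1700 and 900 bp at E17.5. In the Cadm1 window it was 975 and 800 bp at E11.5 and 1025, 1500, 1475 and 1275 bp at E17.5, with no overlap. Regions longer than 10 kb were counted in the windows only, with no share of the whole lists beside them. In the Celf2 window no H3K27ac region at E11.5 was longer than 10 kb, while 2 and 1 were at E14.5, 5 and 10 in frontal and 9 and 3 in occipital cortex. In the Cadm1 window the numbers were 0 and 0 at E11.5, 1 and 0 at E14.5, 3 and 4 in frontal and 3 and 1 in occipital cortex. The widest single regions measured 27.4 kb in the Celf2 window and 27.9 kb in the Cadm1 window, both in frontal cortex.

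H3K4me2 gained less than H3K27ac in covered length, and more in occipital than in frontal cortex. In the Celf2 window it covered 29.2 and 53.7 kb at E11.5, 31.4 and 45.3 kb at E14.5, 72.9 and 68.3 kb in frontal and 111 and 207 kb in occipital cortex. In the Cadm1 window the lengths were 26.0 and 68.5 kb at E11.5, 27.8 and 59.5 kb at E14.5, 57.7 and 42.8 kb in frontal and 81.5 and 176 kb in occipital cortex. There the frontal lists lay between the 2 E11.5 lists. The ratio of E17.5 to E11.5 was 2.77 for Celf2 and 1.89 for Cadm1, against 1.30 for the whole lists. Without occipital replicate 2, the difference of E17.5 minus E11.5 was 49500 bp in place of 73388 bp for Celf2 and 18619 bp in place of 42250 bp for Cadm1, and without E11.5 replicate 1 it was 21025 bp for Cadm1. Without E11.5 replicate 2 it was 63475 bp and without occipital replicate 1 it was 65881 bp for Cadm1.

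**Figure D1:**
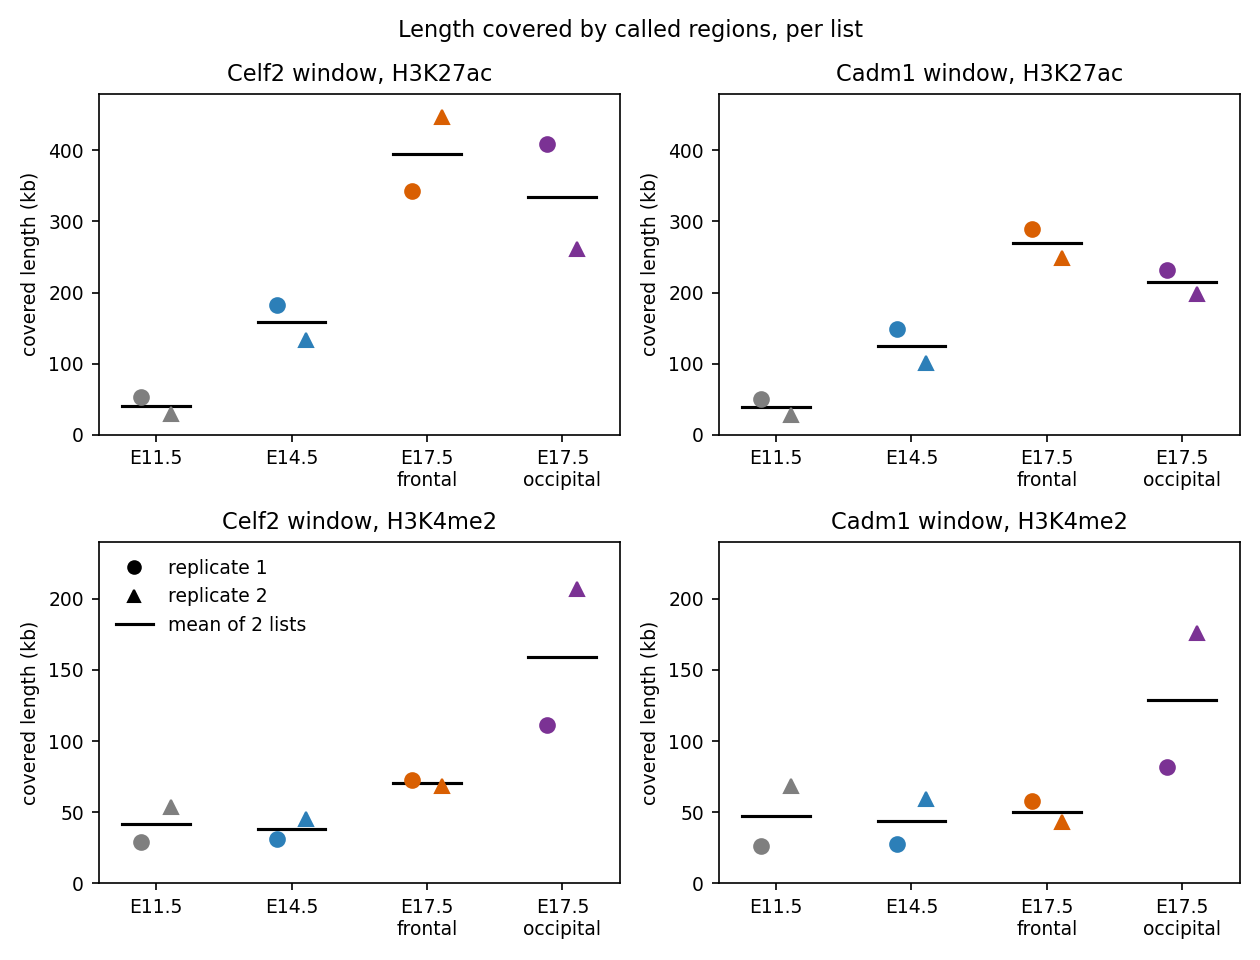
Covered length in kb of each window (columns) and mark (rows) by stage, 1 point per list and a bar for the mean of the 2 lists of a tissue. H3K27ac climbed at each stage in both windows, and H3K4me2 was highest in occipital replicate 2 at 207 and 176 kb.

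How much of the acetylation was in place by E14.5, and where, was described next. This contrast shares the E11.5 lists with the choice. A choice by late gain favours low E11.5 values, which tilts the windows toward higher values at E14.5. The counts and p-values of this contrast in the windows are therefore descriptions. Each window was divided into bins of 100 kb, 16 for Celf2 and 10 for Cadm1, and the change in log2(covered bp + 200) was tested with limma over all bins of the genome, called at a Benjamini-Hochberg adjusted p below 0.05. All 26 bins entered the test for H3K27ac. At E14.5, 8 of 16 Celf2 bins and 5 of 10 Cadm1 bins were called higher than at E11.5 and none lower, against 8.08% of all bins called higher and 0.152% called lower. The median log2 change was 2.41 over the Celf2 bins and 1.83 over the Cadm1 bins, against 0.48 over all bins. In 15 of the Celf2 bins and 8 of the Cadm1 bins both E14.5 lists lay above both E11.5 lists, which held for 43.9% of all bins.

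These calls depend on single lists and on the scaling. On simulated data false calls among bins exceeded the nominal rate for E17.5 against E11.5, and calls of E14.5 against E11.5 were not counted there. Without E14.5 replicate 1 no bin of the windows and 0.0102% of all bins were called, and the median log2 change of the 26 bins was then 1.74 against 0.21 over all bins. Without E11.5 replicate 2 the windows had 5 calls, and without E14.5 replicate 2 they had 6. After division by the total length of each list, 8 bins were called higher, and over all bins 759 were higher and 131 lower, in place of 1593 and 30. Scaling moved the median change of all bins by more than 0.1, to -0.06, and the median of the 26 window bins was then 1.44.

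Within the Celf2 window the coverage was arranged as a broad block and a late tail. The block ran over 5 bins from chr2:6800001 to chr2:7300000, which averaged 32456 to 57356 bp at E17.5, and no other bin of the window averaged more than 25312 bp. Its tallest bin, chr2:7000001-7100000, had 6200 and 3400 bp of H3K27ac at E11.5, 31750 and 26675 bp at E14.5, 57924 and 68975 bp in frontal and 60325 and 42200 bp in occipital cortex. All stages were separate in this bin, and at E14.5 it was higher than at E11.5 by 2.61 on the log2 scale (SE 0.35, limma adjusted p = 0.0168), a call that ended without either E14.5 replicate (adjusted p = 0.136 and 0.0603). Only 23 bins of the genome had a larger difference between E17.5 and E11.5. The bin chr2:6800001-6900000 followed with 8725 and 2900 bp at E11.5, 23625 and 17025 bp at E14.5, 46825 and 65075 bp in frontal and 52950 and 29550 bp in occipital cortex, and its change at E14.5 was not called (log2 1.95, SE 0.55, limma adjusted p = 0.0834).

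Toward the far end of the window the bins were empty or nearly so at E11.5. The bin chr2:7900001-8000000 had no H3K27ac in either E11.5 list, 9275 and 2800 bp at E14.5, 16174 and 25975 bp in frontal and 29900 and 12150 bp in occipital cortex. The bin chr2:7700001-7800000 was later still, with none at E11.5, 1050 and 0 bp at E14.5, 4726 and 12025 bp in frontal and 10550 and 5650 bp in occipital cortex. That bin is the 1 of the 16 in which the E14.5 and E11.5 lists overlapped. At the other end the bin chr2:6600001-6700000 had 4500 and 3175 bp at E11.5, 6400 and 6450 bp at E14.5, 2325 and 4000 bp in frontal and 5125 and 2950 bp in occipital cortex, so that E17.5 and E11.5 overlapped there.

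The most covered Celf2 bins differed between the marks, but the longest loci of both cross the edge of a bin at chr2:6800000 and overlap each other. The bin with the most H3K4me2, chr2:6700001-6800000, had 7950 and 12575 bp at E11.5, 12500 and 12900 bp at E14.5, 24275 and 23575 bp in frontal and 38325 and 53450 bp in occipital cortex. Its H3K27ac was 6425 and 3700 bp at E11.5, 12250 and 9200 bp at E14.5, 10899 and 15925 bp in frontal and 13725 and 12475 bp in occipital cortex. Next to it lies chr2:6600001-6700000, the bin in which H3K27ac overlapped between E17.5 and E11.5. Its H3K4me2 was 2725 and 4150 bp at E11.5, 3150 and 3975 bp at E14.5, 7275 and 6475 bp in frontal and 18675 and 28800 bp in occipital cortex. As a description of the choice, and not as a test, 15 of 16 Celf2 bins and 8 of 10 Cadm1 bins passed the threshold as higher in H3K27ac at E17.5 than at E11.5 and none as lower, against 31.7% and 0.776% of all bins. For H3K4me2, 3 of the 15 Celf2 bins with a region in at least 2 lists and 0 of 10 Cadm1 bins passed it as higher and none as lower, against 3.41% and 0.37% of all bins, and none did without E11.5 replicate 1 or without any 1 of the E17.5 lists. Nothing is read from these counts, which the choice of windows fixed. When each list was scaled to its total, 19 window bins were higher in H3K27ac at E17.5 and 1 was lower, and over all bins 3273 were higher and 3490 lower in place of 6251 and 153.

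**Figure D2:**
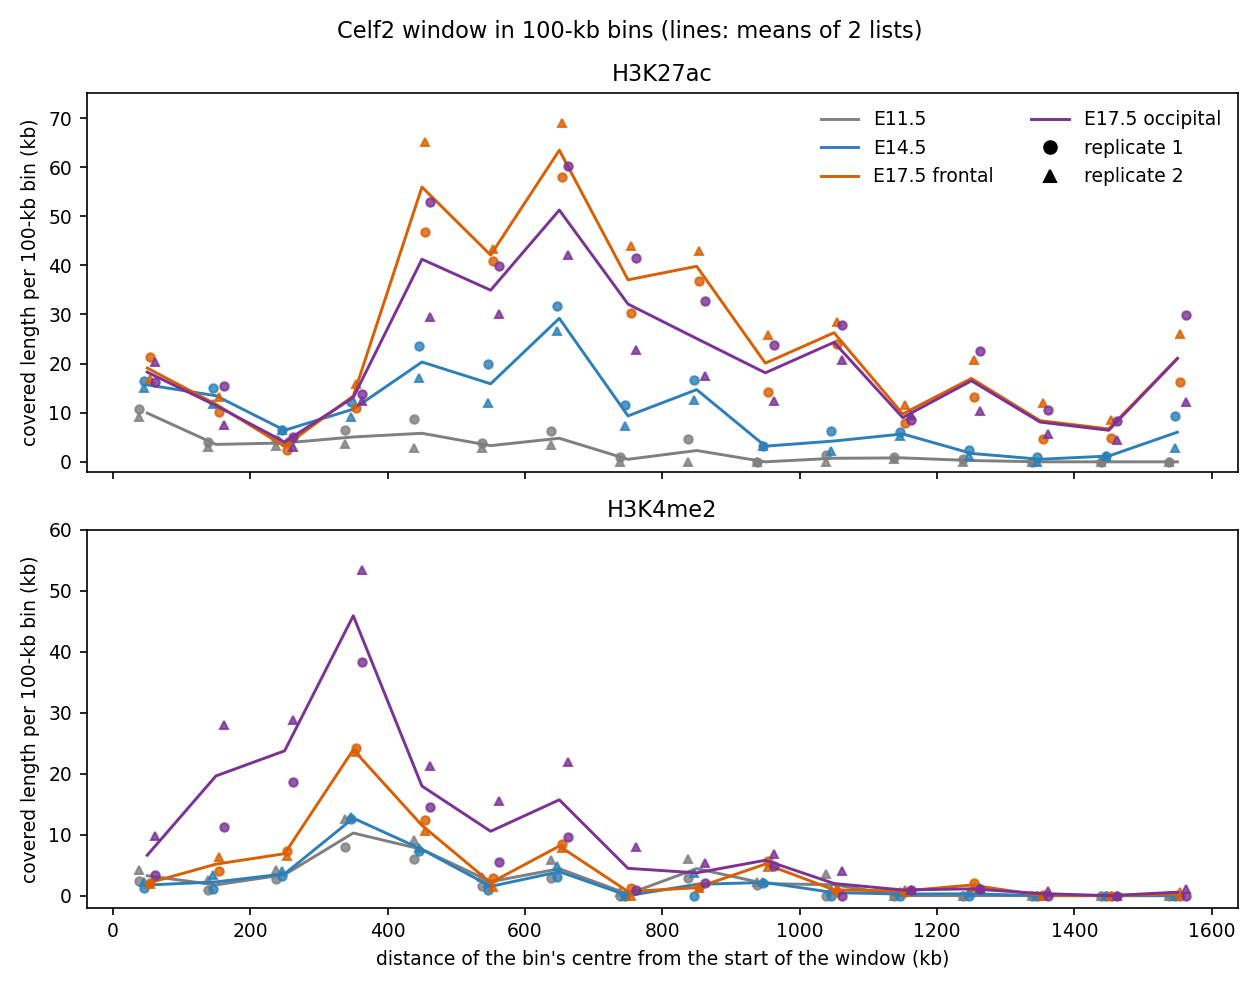
Covered length in kb per 100-kb bin of the Celf2 window against the distance of the bin's centre from the window's start in kb, for H3K27ac (top) and H3K4me2 (bottom), with lines for the means of 2 lists and points for each list. H3K27ac was tallest in the bin from 600 to 700 kb and H3K4me2 in the bin from 300 to 400 kb.

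In the Cadm1 window the H3K27ac block took 3 bins, from chr9:47500001 to chr9:47800000, which averaged 34881 to 56700 bp at E17.5, while no other bin averaged more than 22431 bp. The tallest, chr9:47700001-47800000, had 4925 and 5075 bp at E11.5, 22050 and 16175 bp at E14.5, 63200 and 58750 bp in frontal and 58625 and 46225 bp in occipital cortex. Its stages did not overlap, and E14.5 was higher than E11.5 by 1.88 on the log2 scale (SE 0.25, limma adjusted p = 0.0164). That call ended without E14.5 replicate 1 (adjusted p = 0.126) and without E11.5 replicate 2 (0.0536). The bin chr9:47600001-47700000 had 5750 and 1800 bp at E11.5, 19725 and 13450 bp at E14.5, 48525 and 42125 bp in frontal and 39325 and 24725 bp in occipital cortex. Its change at E14.5 was not called (log2 2.26, SE 0.54, limma adjusted p = 0.0543). The bin chr9:47500001-47600000, with 1975 and 700 bp at E11.5 and 18725 and 11950 bp at E14.5, was called higher at E14.5 (log2 3.44, SE 0.44, limma adjusted p = 0.0151).

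In 2 bins outside the block the E14.5 and E11.5 lists overlapped. The bin chr9:47000001-47100000 had 20325 and 10750 bp at E14.5 and 11575 and 3850 bp at E11.5, and chr9:47200001-47300000 had 10075 and 6925 bp at E14.5 and 8075 and 3350 bp at E11.5. H3K4me2 was placed toward the middle of the window. It covered 7425 and 14075 bp of chr9:47300001-47400000 at E11.5, 8000 and 13450 bp at E14.5, 12675 and 10625 bp in frontal and 19225 and 26275 bp in occipital cortex. The bin chr9:47400001-47500000 had 0 and 1850 bp at E11.5, 0 and 3100 bp at E14.5, 5875 and 3475 bp in frontal and 10650 and 33975 bp in occipital cortex, and occipital replicate 2 made up most of its difference.

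**Figure D3:**
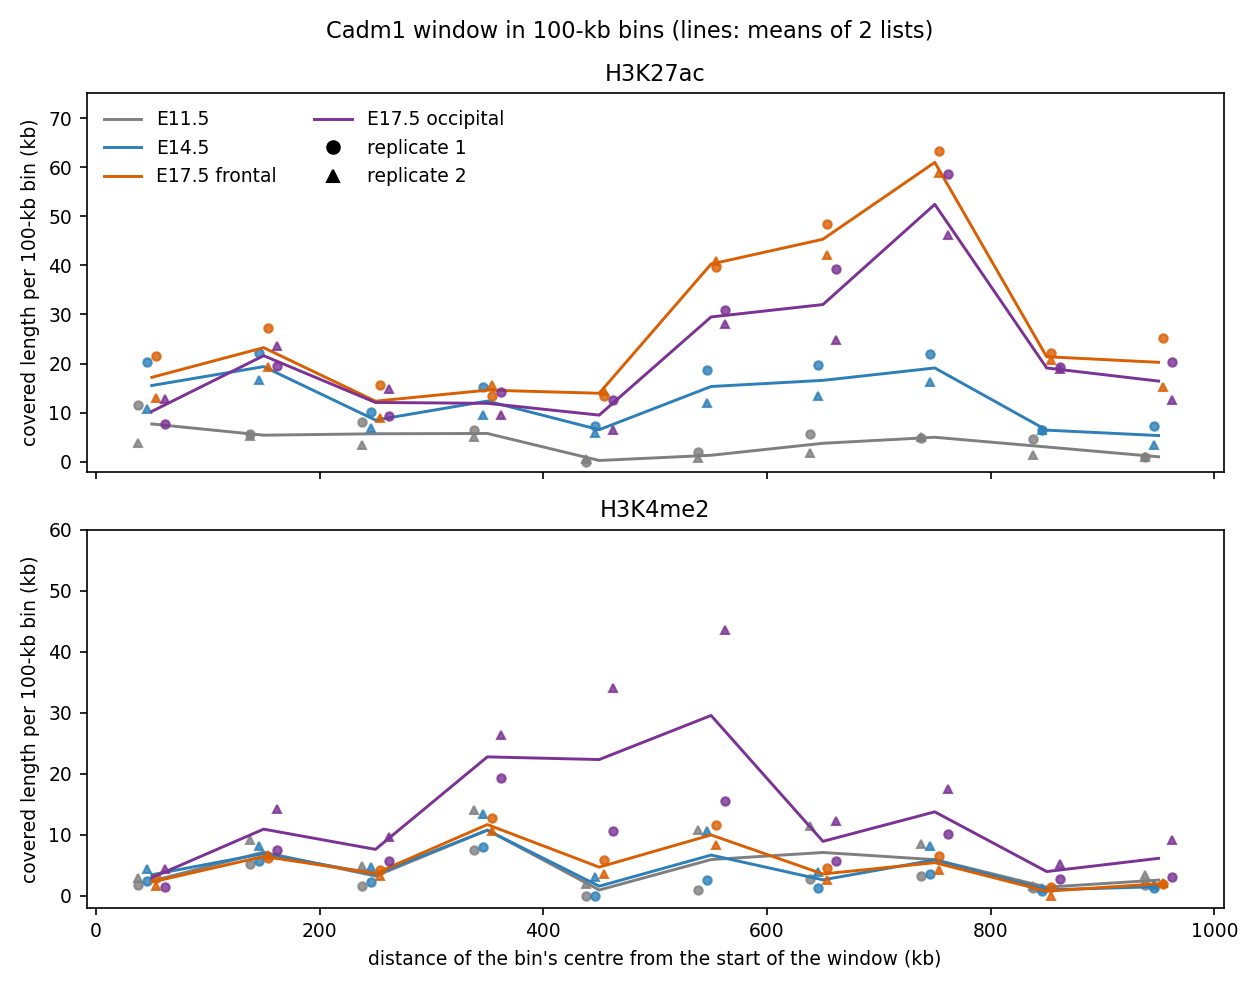
Covered length in kb per 100-kb bin of the Cadm1 window against the distance of the bin's centre from the window's start in kb, for H3K27ac (top) and H3K4me2 (bottom), with lines for the means of 2 lists and points for each list. H3K27ac was tallest in the bin from 700 to 800 kb, and the H3K4me2 points of occipital replicate 2 lie above all others in all 10 bins.

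Between E11.5 and E14.5 the H3K4me2 of the windows showed no change that stood out from the whole lists. No H3K4me2 bin of either window was called at E14.5 against E11.5 by limma at the adjusted threshold, and 0% of all bins were. At an unadjusted p below 0.05 there were 0 window bins and 798 of the 18896 bins of the genome. In no window bin did both E14.5 lists lie above both E11.5 lists, against 4.25% of all bins. The covered length of E14.5 over E11.5 was 0.925 for Celf2 and 0.924 for Cadm1, against 0.887 for the whole lists, while for H3K27ac it was 3.87 and 3.20 against 1.70. Whether the 2 marks differ in this change was not tested.

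Resolved to single loci, made by merging regions of the 8 lists of a mark that touch or overlap, the H3K27ac of the Celf2 window fell into 174 loci and that of the Cadm1 window into 147. Of these, 121 and 100 had a region in at least 2 lists and were tested, and 14 and 13 had one in all 8 lists. On simulated data with a small set of changed loci, calls of E17.5 against E11.5 held more unchanged than changed loci. Calls of E14.5 against E11.5 were not counted there. An adjusted p of a locus is therefore given as a description and not as an error rate. The longest Celf2 locus, chr2:6784076-6812026, was occupied at every stage, with 12625 and 5075 bp at E11.5, 20050 and 17750 bp at E14.5, 20550 and 27450 bp in frontal and 25325 and 22375 bp in occipital cortex. Its change at E14.5 was not called (log2 1.21, SE 0.44, limma adjusted p = 0.228). The longest H3K4me2 locus of the window, chr2:6779651-6809075, overlapped it and had 12675 and 16575 bp at E11.5, 18725 and 19025 bp at E14.5, 24100 and 24350 bp in frontal and 26700 and 29425 bp in occipital cortex, with all stages separate. The second H3K27ac locus, chr2:6999401-7024525, had 4875 and 2850 bp at E11.5, 16200 and 16475 bp at E14.5, 22800 and 25050 bp in frontal and 19675 and 18400 bp in occipital cortex. It was higher at E14.5 by 2.07 on the log2 scale (SE 0.27, limma adjusted p = 0.0158), which ended without either E14.5 replicate (adjusted p = 0.0984 and 0.0687).

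Other long loci had no region at E11.5 at all. At chr2:7154451-7167350 H3K27ac covered 0 bp in both E11.5 lists, 6250 and 4625 bp at E14.5, 9000 and 11225 bp in frontal and 11825 and 8900 bp in occipital cortex. The change at E14.5 was 4.8 on the log2 scale (SE 0.23, limma adjusted p = 0.00188), a value that depends on the 200 bp added. With each of the 8 lists left out in turn it was 4.59 to 5.01. This locus was named for having 0 bp at E11.5 and entered the fit only through the later stages. Its adjusted p and the range are thus descriptions and no test of a change. At chr2:7942476-7956325, near the window's end, the lengths were 0 bp in both E11.5 lists, 7775 and 2800 bp at E14.5, 8800 and 13600 bp in frontal and 13850 and 8300 bp in occipital cortex. The locus chr2:7467852-7478175 came later, with 0 bp in both E11.5 lists, 1775 and 0 bp at E14.5, 8050 and 10300 bp in frontal and 9275 and 6425 bp in occipital cortex.

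Cadm1 had the longest single locus of either window. At chr9:47663976-47694050 H3K27ac covered 2725 and 1275 bp at E11.5, 11525 and 7475 bp at E14.5, 27900 and 26200 bp in frontal and 26625 and 18250 bp in occipital cortex. E14.5 exceeded E11.5 by 2.19 on the log2 scale (SE 0.40, limma adjusted p = 0.0326), but the call ended when any list other than E11.5 replicate 1 was left out (adjusted p = 0.0547 to 0.179). A second long locus, chr9:47707501-47724425, had 3100 and 4075 bp at E11.5, 8225 and 10175 bp at E14.5, 14050 and 14700 bp in frontal and 13950 and 14725 bp in occipital cortex. Directly beside it chr9:47724626-47740175 had 0 bp in both E11.5 lists, 4375 and 0 bp at E14.5, 13750 and 13625 bp in frontal and 12200 and 9150 bp in occipital cortex. The E14.5 lists thus disagreed at this locus, while all 4 E17.5 lists were far above them.

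**Figure D4:**
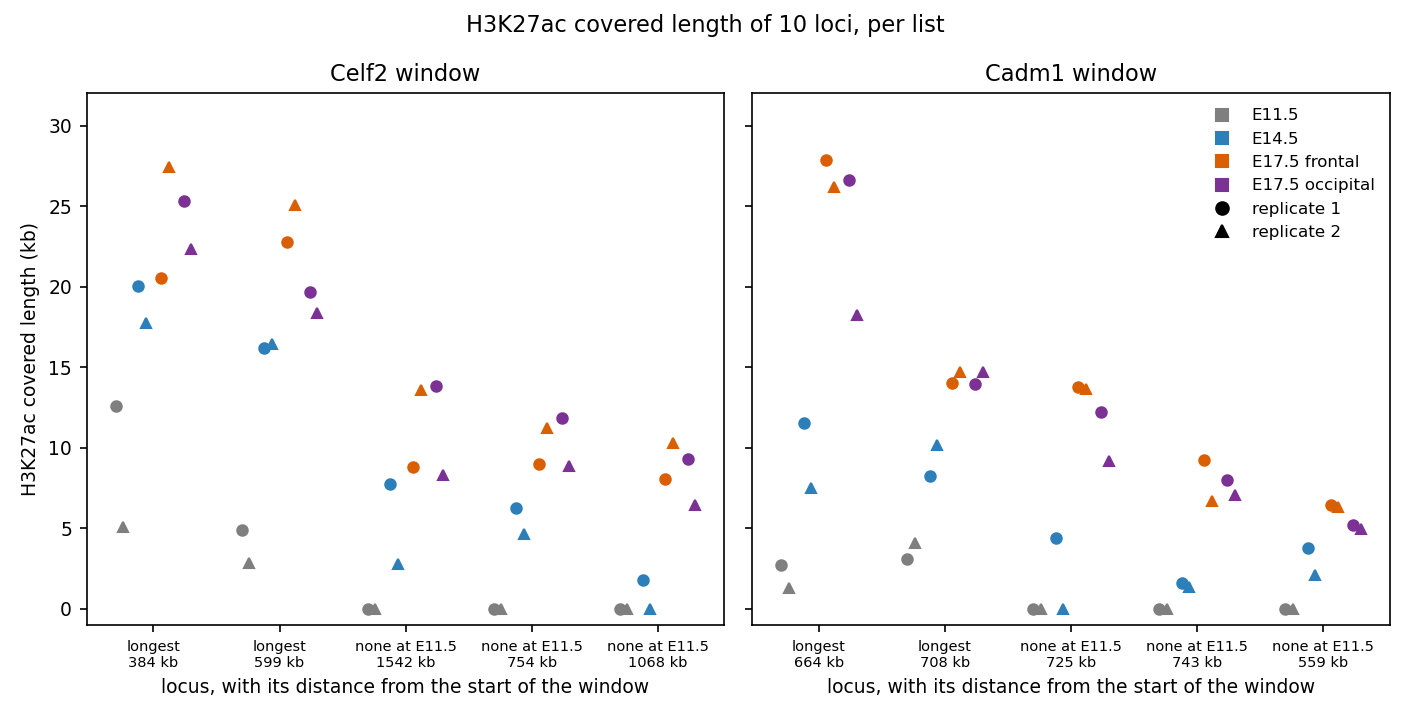
H3K27ac covered length in kb of the 2 longest loci of each window and of the 3 longest at E17.5 among those with none at E11.5, named by their distance from the window's start, 1 point per list. The loci with none at E11.5 reach 4950 to 13850 bp at E17.5, and their E14.5 points run from 0 to 7775 bp.

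At E14.5, 17 of the 121 tested Celf2 loci and 15 of the 100 tested Cadm1 loci were called higher in H3K27ac than at E11.5 and none lower, against 6.52% of all loci called higher and 0.964% called lower. In 12 and 10 of them both E11.5 lists had 0 bp. Testing needed a region in 2 lists, so a locus without E11.5 coverage could enter only through the later stages. The smallest adjusted p in the Cadm1 window was at chr9:47743352-47752750, with 1575 and 1375 bp at E14.5 and 0 bp in both E11.5 lists (log2 3.06, SE 0.21, limma adjusted p = 0.00305). Without E14.5 replicate 1 the 2 windows together had 8 calls in place of 32, without E11.5 replicate 2 they had 14, and without E14.5 replicate 2 they had 15. Among the called loci chr9:47037476-47038350, picked out after its values were seen, had 875 and 650 bp at E14.5 and 0 bp in every other list. For H3K4me2, 1 of 61 tested Cadm1 loci and none of 52 tested Celf2 loci were called higher and none lower, against 1.87% and 2.08% of all loci. That locus, chr9:47229901-47231875, had 825 and 1850 bp at E14.5 and 0 bp in both E11.5 lists (log2 2.86, SE 0.43, limma adjusted p = 0.0267), a call that ended without either E11.5 list or any 1 of the E17.5 lists (adjusted p = 0.0648 to 0.124).

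The timing of loci that were absent at E11.5 and present throughout E17.5 can be described by their E14.5 lists. Such late loci, with no region in either E11.5 list and a region in all 4 E17.5 lists, were 44 of 174 in the Celf2 window (25.3%) and 31 of 147 in the Cadm1 window (21.1%), against 7.62% of all H3K27ac loci. In both E14.5 lists, 19 of the 44 and 13 of the 31 were present. In 1 E14.5 list, 11 and 8 were present, and in none 14 and 10. The share of late loci in both E14.5 lists was thus 43.2% for Celf2 and 41.9% for Cadm1, against 45.2% over the genome, and the share in neither was 31.8% and 32.3%, against 23.2%. The opposite pattern, a region in both E11.5 lists and in no E17.5 list, was found at 0 loci of either window and at 0.899% of all loci.

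Less covered length at E17.5 than at E11.5 was found at 7 of 174 Celf2 and 6 of 147 Cadm1 loci for H3K27ac, and at 9 and 15 of 88 loci each for H3K4me2. Falls were counted in the windows only, with no share of all loci beside them. A choice by late gain favours few falls, so nothing is read from these counts. The H3K27ac locus with the largest fall, chr9:47209801-47212625, had 950 bp in 1 frontal and 1 occipital list and 0 bp in the other E17.5 lists, against 2825 and 650 bp at E11.5. For H3K4me2, chr2:7229526-7234550 had 1400, 1200, 1375 and 3175 bp at E17.5, against 2900 and 5025 bp at E11.5, and the groups overlapped. At chr9:47610976-47614275 H3K4me2 was 0 bp in 3 E17.5 lists and 1125 bp in occipital replicate 2, against 850 and 3300 bp at E11.5.

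Whether H3K4me2 was present at the late H3K27ac loci is given as a description. H3K4me2 did not define these loci, but its E11.5 and E17.5 lists are among those counted as used in choosing the windows. In the Celf2 window, 3 of the 44 late loci overlapped an H3K4me2 region by at least 1 bp in at least 1 E11.5 list (6.82%, 95% Wilson interval 2.35% to 18.2%), against 24.3% of 10512 late loci in the whole genome. At E14.5 the number was again 3, at E17.5 it was 8 in frontal and 21 in occipital cortex. H3K4me2 was in none of the 8 lists at 23 of the 44 (52.3%, 37.9% to 66.2%), against 15.7% of late loci genome-wide. In the Cadm1 window 9 of 31 overlapped H3K4me2 at E11.5 (29.0%, 16.1% to 46.6%), 11 at E14.5, 12 in frontal and 22 in occipital cortex, and 8 had it in none (25.8%, 13.7% to 43.2%). The Cadm1 shares at E11.5 and E14.5 are within counting error of the genome's 24.3% and 36.5%. So are those in occipital cortex (53.4% to 83.9%, genome 81.3%) and in none of the lists (genome 15.7%). The frontal interval (23.7% to 56.2%) ends just below the genome's 56.9%. The intervals treat loci as independent and cover counting error only, and no test was made because loci of a window share the same lists.

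Of the genome's late loci 56.9% overlapped H3K4me2 in at least 1 frontal list and 81.3% in at least 1 occipital list, above the 18.2% and 47.7% in the Celf2 window. The median length of a late locus was 4400 bp in the Celf2 window and 2499 bp in the Cadm1 window, against 2650 bp over the genome, and the part of length in these shares was not tested. Over both windows 41.3% of the late loci had no H3K4me2 in any list, with 52.3% for Celf2 and 25.8% for Cadm1. Alternatives chosen after seeing the data gave 28.6% against 11.2% genome-wide for loci of at least 3000 bp, 23.4% against 13.3% with regions of at least 1000 bp only, and 60% against 29.0% without the H3K4me2 list of occipital replicate 2. The low share with H3K4me2 at E11.5 was less stable, and with regions of at least 1000 bp only it was 27.7% over both windows, against 28.7% genome-wide.

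**Figure D5:**
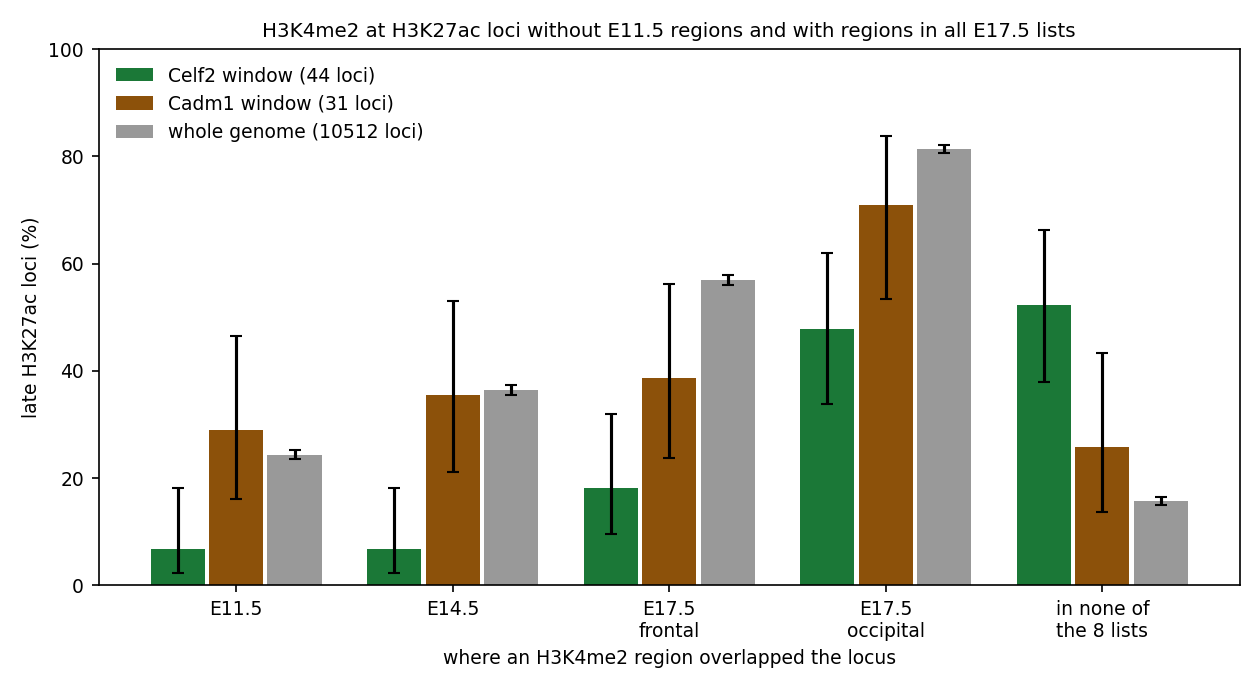
Share in percent of late H3K27ac loci that an H3K4me2 region overlapped in at least 1 list of each tissue, and in none of the 8 lists, for the Celf2 window (44 loci), the Cadm1 window (31) and the whole genome (10512), with bars for the share and whiskers for its 95% Wilson interval. The Celf2 bars are below the genome's in each tissue, and its share in none is 52.3% against 15.7%.

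Counted in bases, the share of H3K27ac that lay in H3K4me2 was lower at E14.5 and in frontal cortex than at E11.5 in lists of the same number, and its denominator, the H3K27ac length, grew over these stages. In the Celf2 window 46.9% and 66.1% of the H3K27ac bases lay in an H3K4me2 region of the same tissue and replicate at E11.5, 15.99% and 26.7% at E14.5, 15.2% and 12.5% in frontal and 16.7% and 41.4% in occipital cortex. In the Cadm1 window the shares were 38.9% and 63.1% at E11.5, 18.4% and 41.3% at E14.5, 16.4% and 14.9% in frontal and 27.6% and 52.2% in occipital cortex. Over the whole genome they were 56.7% and 71.4% at E11.5, 37.8% and 56.5% at E14.5, 41.2% and 41.4% in frontal and 48.2% and 70.0% in occipital cortex. In each of the 8 pairs of lists, both windows lay below the genome.

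The E17.5 tissues allow a comparison of frontal with occipital cortex, a contrast that the choice of windows did not use. H3K27ac covered 395025 ± 74034 bp of the Celf2 window in the frontal and 335062 ± 105235 bp in the occipital tissue (SD, n = 2 each), and the lists overlapped (exact two-sided permutation p = 0.667). For Cadm1 the values were 269588 ± 28832 bp in the frontal and 214888 ± 24236 bp in the occipital tissue (SD, n = 2 each), with both frontal lists above both occipital ones (exact permutation p = 0.333). The H3K27ac list of occipital replicate 2 covered 129 Mb, against 160 to 169 Mb in the other E17.5 lists. As a share of the list's covered length the Celf2 window took 0.241% in frontal and 0.228% in occipital cortex. The Cadm1 window took 0.163% and 0.148%, a smaller relative difference than in bp. H3K4me2 went the other way, with 70625 ± 3217 bp of the Celf2 window in frontal and 159050 ± 67564 bp in occipital cortex, and with 50212 ± 10554 bp of the Cadm1 window in frontal and 128738 ± 66839 bp in occipital cortex (SD, n = 2 each; exact permutation p = 0.333 for both windows). With 2 lists against 2, 0.333 is the smallest p this test can give, so it could not pass 0.05. The occipital mean of H3K4me2 leans on replicate 2, whose list is the longest of the mark, and as a share of the list's covered length the Celf2 window took 0.0727% in frontal and 0.113% in occipital cortex, and the Cadm1 window 0.0513% and 0.0904%.

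By bins no difference between frontal and occipital cortex was called with limma for either mark, in the windows or in the genome (0% of all bins). At an unadjusted limma p below 0.05 there were 0 of 26 window bins for H3K27ac, against 374 of 19709 bins in the genome. For H3K4me2 there were 5 of 15 Celf2 bins and 2 of 10 Cadm1 bins, against 1834 of 18896 bins in the genome. In H3K27ac both frontal lists exceeded both occipital lists in 2 of 16 Celf2 bins and 6 of 10 Cadm1 bins, against 15.2% of all bins. Both occipital lists exceeded both frontal lists in none, against 6.14%. These lengths were not scaled to the list totals, and the H3K27ac list of occipital replicate 2 covered the least at E17.5. In H3K4me2 both occipital lists exceeded both frontal lists in 8 of 15 Celf2 bins and 9 of 10 Cadm1 bins, against 53.9% of all bins, so that the Celf2 count is near the background. The opposite order held in 1 Celf2 bin and 0 Cadm1 bins, against 2.38%.

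At the level of loci, H3K4me2 was called lower in frontal than in occipital cortex at 11 of 52 tested Celf2 loci (21.2%) and 7 of 61 tested Cadm1 loci (11.5%). None was called higher. Of all loci 9.23% were called lower and 0.698% higher, so that the Cadm1 share is near the background. Among the window loci called lower, 7 and 6 had 0 bp in every list but the occipital ones. At chr2:6741326-6743300, for example, both frontal lists had 0 bp and the occipital lists 1725 and 1975 bp. At a locus occupied throughout, chr2:6638951-6645425, H3K4me2 covered 2800 and 2725 bp in frontal and 4900 and 6425 bp in occipital cortex, and 2725 and 3450 bp at E11.5. The difference was -0.97 on the log2 scale (SE 0.17, limma adjusted p = 0.0175) and was -0.51 after scaling to the list totals (adjusted p = 0.383), and the call ended without any 1 of the E17.5 lists (adjusted p = 0.0842 to 0.266). The loci with regions in the occipital lists alone entered the fit only through the tissue where they are high, so the 18 calls are a description and no test of a difference. None of the 18 was made without either occipital replicate or when loci had to be in at least 3 lists.

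For H3K27ac, 5 of 121 tested Celf2 and 4 of 100 tested Cadm1 loci were called higher in frontal than in occipital cortex and 2 Celf2 loci lower, against 1.59% of all loci called higher and 0.721% called lower. All 11 were short and had regions in both lists of 1 tissue and nowhere else, so they entered the fit only through that tissue and the calls are no test of a difference. At chr9:47123401-47124450 the frontal lists had 725 and 1050 bp and all others 0 bp (log2 2.43, limma adjusted p = 0.04), and at chr2:6875801-6876500 the frontal lists had 0 bp and the occipital lists 500 and 500 bp. No such call was left when any single list was left out, with the covered lengths scaled, or with 1000 bp added in place of 200.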

How the data were processed

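Each file gives, per the file itself, called regions as chromosome, start and end, 1 file per ChIP sample. The deposited values are thus interval positions in bp, another kind of unit than counts, and the authors deposited no count, signal or score with them. Per the submitters' processing notes the reads were handled with Bowtie 0.12.9, and mm9 is among the builds listed. The sources used here do not name the region caller or its threshold. The mouse lists reach position 197068850 of chromosome 1, past the last gene end (195291439) of the GRCm38.p6 table, and were taken as mm9. Per the series' design text the replicates are biological. Rhesus lists and inputs were not analysed here.

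The members, windows, lists and named loci were chosen with earlier results of these data known. Named bins and loci are, per window and mark, the most covered, those with the largest gain or fall, the most covered at E17.5 without E11.5 regions, and up to 3 called ones with the smallest adjusted p. Bins named for little change, for late filling or beside their neighbours were chosen after their values were seen. The planned CELF and CADM family lists needed an mm9 annotation and were not run.

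Covered bp per list was computed in 100-kb bins and in merged loci, and log2(covered bp + 200) was fitted with limma 3.58.1 (R 4.3.3; lmFit, eBayes with trend), with a mean per tissue over the 8 lists of a mark and features with a region in at least 2 lists. The E17.5 value is the mean of the frontal and occipital tissues. Benjamini-Hochberg adjustment ran over all features genome-wide. On simulated data with noise drawn from the fit's own residuals, false calls exceeded the nominal rate, moderately for bins and so far for loci that unchanged loci outnumbered changed ones, so locus calls are descriptions. With normal noise the false calls were near the nominal rate. The simulation raised a small random set of features at E14.5 and E17.5, and these calls were counted for E17.5 against E11.5 only. The balance of unchanged to changed calls depends on the size of that set, so it does not carry over to the real lists. Log2 changes understate the change of short features. Exact permutation tests and Wilson intervals used scipy 1.17.1 in Python 3.11.15. Depth is unknown. Alternatives were the added length, the replicate block, scaling, region width, list minimum, merging distance, bin shift, region number and leaving out each list.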

Additional observations from a re-analysis of the deposited data

Results flagged for a closer look

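In 4 of the 60 groups of E17.5 values examined, from bins and from whole windows, 1 list lay far from the other 3. The cut-off would flag about 1 in 20 independent groups of 4 values from a single normal population. These groups pool frontal and occipital lists and share the same lists, so that rate need not hold here. All 4 are H3K4me2 bins in which occipital replicate 2, the longest H3K4me2 list, was the high one. In chr2:7000001-7100000 the gap to the next list was 0.877 of the whole range, with 8400 and 7850 bp in frontal and 9575 and 21850 bp in occipital cortex. In chr2:7100001-7200000 it was 0.833, with 1325 and 0 bp in frontal and 1000 and 7950 bp in occipital cortex. In chr9:47100001-47200000 it was also 0.833, with 6175 and 6675 bp in frontal and 7525 and 14275 bp in occipital cortex. In chr9:47900001-48000000 it was 0.831, with 1875 and 2025 bp in frontal and 3100 and 9125 bp in occipital cortex. The part of the list's length in these values was not tested.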

How the results depend on the processing

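Counts below are for both windows together. For H3K27ac at E14.5 against E11.5, 13 bins were called, 8 after scaling to the list total and 2 with the number of regions per bin, and 32 loci were called, 16 with 1000 bp added. The 11 H3K27ac loci called between frontal and occipital cortex became 0 with 1000 bp added, 0 after scaling, 0 with loci in at least 3 lists, 0 with loci in any list, 3 with an equal number of the widest regions and 4 with regions of at least 1000 bp. With regions up to 1000 bp apart merged, the locus chr2:6875801-6876500 was merged with its neighbours and the log2 difference was 0.21, of the opposite sign to -1.81. For H3K4me2 between frontal and occipital cortex, 0 bins became 2 with an equal number of the widest regions and 1 with regions of at least 1000 bp, and 18 loci became 0 with loci in at least 3 lists. The 3 H3K4me2 bins past the threshold at E17.5 against E11.5, a description only, became 6 after scaling, 7 with an equal number, 1 with bins shifted by 50 kb and 0 with the number of regions. The 1 H3K4me2 locus called at E14.5 against E11.5, chr9:47229901-47231875, became 0 with 1000 bp added, 3 after scaling, 3 with an equal number, 0 with regions of at least 1000 bp and 0 in at least 3 lists. The differences of E17.5 minus E11.5 in H3K27ac were 324156 bp for Celf2 and 203175 bp for Cadm1, 229965 and 133021 bp after scaling, and 173194 bp for Cadm1 with an equal number of regions. The share of late loci with H3K4me2 at E11.5, 16%, was 2.67% with 50% of the locus covered, 4.00% in both E11.5 lists and 27.7% with regions of at least 1000 bp, and the share with none in any list, 41.3%, was 23.4% with such regions and 28.6% for loci of at least 3000 bp. The causes were not tested.

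The labels tie no replicate number to a shared day or litter, so lists of 1 number share only that number. Correlations of their deviations ran from -0.291 to 0.129 for H3K27ac bins and from -0.0988 to 0.347 for H3K4me2 bins, where E11.5, E14.5 and occipital lists of a number deviated together (0.166 to 0.347) and frontal lists did not. With the replicate block, H3K27ac had 14 bins and 25 loci at E14.5 and 0 loci between frontal and occipital cortex, and H3K4me2 had 0 loci at E14.5. The block moved no other count by more than 1.5 times.

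Leaving out each list in turn gave ranges of 0 to 19 H3K27ac bins and 8 to 34 loci at E14.5, 19 to 24 bins at E17.5 and 0 loci between frontal and occipital cortex. For H3K4me2 the ranges were 0 to 3 bins at E17.5, 0 to 3 loci at E14.5 and 0 to 20 loci between frontal and occipital cortex. The H3K27ac differences ran from 286950 to 361362 bp for Celf2 and 191988 to 214362 bp for Cadm1, the H3K4me2 ones from 49500 to 97275 bp and 18619 to 65881 bp. The late shares ran from 5.33% to 25.5% with H3K4me2 at E11.5, lowest without H3K4me2 replicate 2 of E11.5, and from 34.0% to 60% with none.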
